A study of Gossypium hirsutum with 15 samples.

Results

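A set of 81 cDNA probes had a line difference between TM-1 and *im* cotton fibers that reached 2-fold at 19 days post anthesis (DPA) and stayed small at the other stages. They were drawn from 29184 cDNA probes on the array, of which 12092 were measured at every stage. Members were chosen by the mean log2 ratio alone. A probe was taken when the mean log2 ratio of TM-1 over *im* was at least 1 in size (2-fold) at 19 DPA and under 0.5 in size at 13, 16, 22 and 25 DPA. In 18 of them the level at 19 DPA was higher in TM-1, and in 63 it was higher in the *im* mutant. The ratio that chose the probes is therefore described below with no test. What the rule did not use is the mean level of both lines. Its change from 16 to 22 DPA was tested, a contrast chosen after the data had been seen. The steps to and from 19 DPA were also tested, but they share their channel values at 19 DPA with the ratio.

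Both lines are Upland cotton (*Gossypium hirsutum*) grown in the field. TM-1 is the genetic standard line of the species, and *im* (*immature fiber*) is a near-isogenic mutant in the TM-1 background. RNA from fibers of both lines was co-hybridised in Cy5 and Cy3 on 15 arrays, 3 for each of the 5 stages from 13 to 25 DPA, and the design of the series includes a dye swap. The record of the series names fiber-bearing ovules, whereas the sample labels name fibers. The spots carry plate positions and no gene names, so fiber and seed markers could not be looked up. Probes are named here by those positions, and several of them may represent the same gene. The extent to which the 3 arrays of a stage came from separate plants is described in more than one way in the sources, so the p-values measure the spread between these arrays, which may be partly technical.

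A cotton fiber is a single, very long cell that grows from the surface of the seed. After it has elongated, it lays down a secondary cell wall (SCW) of almost pure cellulose, and the stages sampled here run from elongation into that thickening. In the *im* mutant the fiber wall thickens less than in TM-1, and the mature fibers are non-fluffy. The passage from elongation to SCW synthesis is known for a large exchange of transcripts, in which those of the primary wall and of rapid growth decline and those of cellulose synthesis accumulate.

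Which line is the higher one rests on the dye assignment. By the channel order of the source names, which was used here, TM-1 was in Cy3 on replicates 1 and 3 and in Cy5 on replicate 2. The methods assign the dyes the other way round, and under it each statement below on TM-1 holds for *im* and the reverse. Within a stage, replicate 2 correlated with the other arrays at -0.753 to -0.385 before it was turned, while replicates 1 and 3 correlated at 0.565 to 0.801. The dye labels, by contrast, put *im* in Cy5 on all 15 arrays, which would mean no swap, and with no swap the rule took 32 probes, all of them higher in *im*, and 0 in the other direction. The material labels differ from the source names only at 16 and 22 DPA, where all 81 probes are under 0.5 in size with either sign, so the same probes meet the rule. Where those labels differ, however, the levels of TM-1 and *im* would be exchanged. The line-by-line levels and changes below would then be altered, which was not computed.

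Most probes with a 2-fold line difference at 19 DPA also differed at another stage. Of the 12092 probes, 252 (2.08%) were at least 2-fold higher in TM-1 at 19 DPA and 418 (3.46%) at least 2-fold higher in *im*. Among the 252, a difference of 0.5 or more was also present at 1 other stage in 83 probes, at 2 in 84, at 3 in 52 and at all 4 in 15. Among the 418, these counts were 117, 124, 85 and 29. The limits cut through a continuous range. The last probe inside at 19 DPA had a mean ratio of 1.007 in the group higher in TM-1 and the first outside 0.999, and in the group higher in *im* these values were -1.004 and -0.996. At the other stages the probes just inside reached 0.497 in the former and 0.4997 in the latter, and those just outside began at 0.501 and 0.502.

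In the 18 probes higher in TM-1, the mean log2(TM-1/*im*) at 19 DPA ran from 1.01 to 1.45 with a median of 1.12, a fold change of 2.17. The probe at the upper end had its *im* signal under 400 units on all 3 arrays, the limit below which a spot counts as faint. Their median was 0.83 on replicate 1, 1.05 on replicate 2 and 1.24 on replicate 3. The ratio was positive on every array that measured the probe in 18 of 18, with 15 measured on 3 arrays and 3 on 2 arrays. At 13, 16, 22 and 25 DPA the medians were -0.10, 0.21, 0.27 and 0.24, so a small difference of the same sign stood at 22 DPA in 14 of 18 probes and at 25 DPA in 16 of 18.

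In the 63 probes higher in *im*, the mean ratio at 19 DPA ran from -2.28 to -1.004 with a median of -1.26, a fold change of 2.39. The probe at the lower end was read on 2 arrays and had a TM-1 signal under 400 units on all 3. In size, 20 probes were past 1.5 and 4 past 2, that probe included. The arrays were less alike here, with a median of -1.82 on replicate 1, -1.04 on replicate 2 and -1.05 on replicate 3. In 50 probes the ratio was read on 3 arrays, in 12 on 2 and in 1 on a single array, and 61 of 63 had the same sign throughout. At 13, 16, 22 and 25 DPA the medians were 0.12, -0.01, -0.19 and -0.08, with 44 of 63 probes negative at 22 DPA. By limma at 19 DPA, 15 of the 18 and 44 of the 63 were DEGs (adjusted p under 0.05 and at least 2-fold), against 1.82% and 3.12% of all 16749 probes tested in the same directions. The rule used the same contrast, so nothing is read from these counts.

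**Figure D1:**
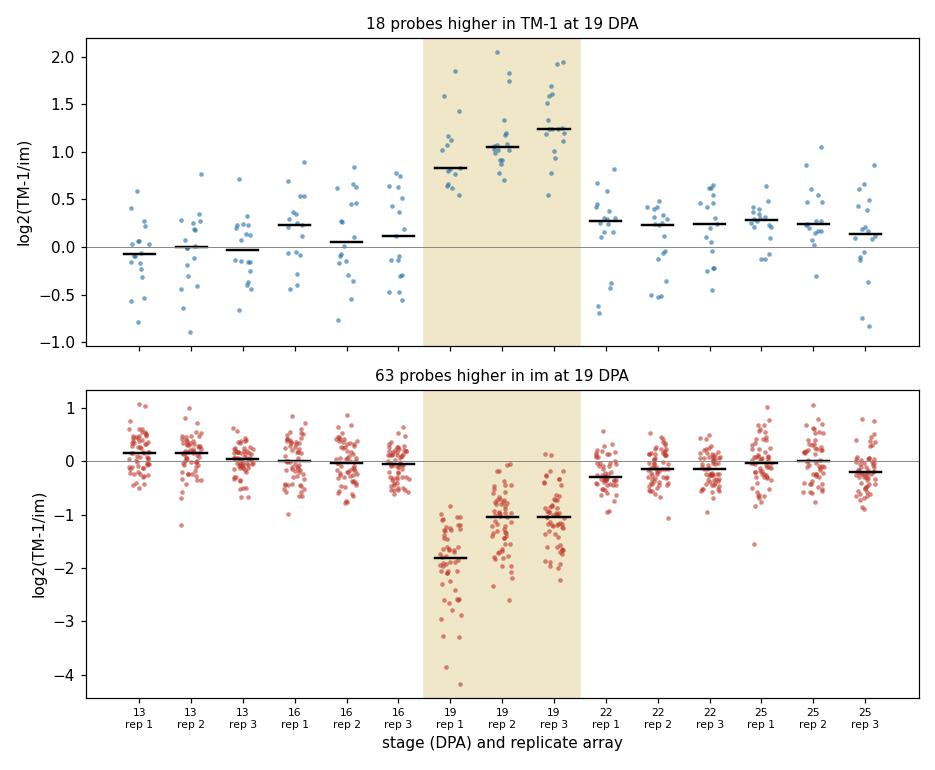
Log2 ratio of TM-1 over *im* (vertical axis) of each probe on each of the 15 arrays (horizontal axis), for the 18 probes higher in TM-1 (top) and the 63 higher in *im* (bottom). Points are probes, black bars are medians over probes and the shaded arrays are those of 19 DPA, where the medians were 0.83, 1.05 and 1.24 (top) and -1.82, -1.04 and -1.05 (bottom).

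The arrays of 19 DPA differed in background. The median local background in Cy3 was 972 units on replicate 1, 797 on replicate 2 and 284.5 on replicate 3, against 253.5 to 519 on the arrays of the other stages. TM-1 was in Cy3 on replicate 1, and in 42 of the 63 probes higher in *im* the TM-1 signal there was faint. On replicates 2 and 3 this held for 6 and 10 of them. The *im* signal of the same 63 probes was faint on 1 array in 11 and on none in 52. Of the 18 probes higher in TM-1, the *im* signal was at least 400 units on all 3 arrays in 10.

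The probes higher in *im* fell apart by this measure. In 21 the TM-1 signal was at least 400 units on all 3 arrays, and there the median ratio was -1.61 on replicate 1 and -1.27 as the mean of replicates 2 and 3, with a median SD of 0.19. In 28 the TM-1 signal was faint on replicate 1 alone, and there the medians were -2.09 and -0.88, with a median SD of 0.69. In the other 14 TM-1 was faint on 2 or 3 arrays, and there the medians were -2.06 and -1.15, with 9 of 14 at -1 or below in the mean of replicates 2 and 3. The SD over arrays was 1 or more in 15 probes. In all 15 TM-1 was faint on replicate 1, and the median ratio was -2.64 on that array, where read, and -0.47 on the other arrays. Only 1 of the 15 was at -1 or below without replicate 1. That probe had no ratio on replicate 1, and its ratios on replicates 2 and 3 were -1.78 and -0.25. Over all 63, 34 were at -1 or below in the mean of replicates 2 and 3. With replicate 1 of 19 DPA left out, the rule took 37 probes higher in *im*, 33 of them among the 63, and 28 higher in TM-1, all 18 among them. The part of the background in these ratios was not tested.

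**Figure D2:**
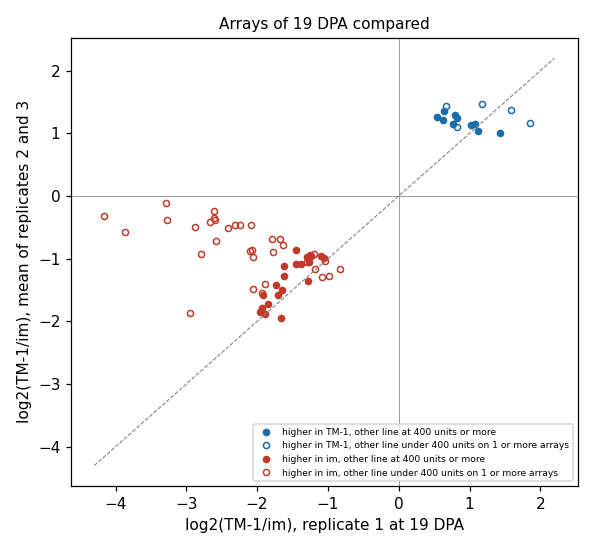
Log2(TM-1/*im*) at 19 DPA on replicate 1 (horizontal axis) against the mean of replicates 2 and 3 (vertical axis), for probes measured on replicate 1. Filled points had the lower line at 400 units or more on all 3 arrays, open points had it under 400 units on at least 1, and the dashed line marks equal values. The open points of probes higher in *im* extend far to the left at values near -0.5 on the vertical axis, while the filled ones lie close to the line.

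The probes with the largest consistent ratios show both kinds of reading. For 384P71_A_23, higher in *im*, the log2 ratio at 19 DPA was -1.96, -1.69 and -2.01 on replicates 1, 2 and 3, a mean of -1.88 ± 0.17 (SD, n = 3) or a 3.69-fold difference. No channel was faint, the 3 arrays were close to each other, and the means at 13, 16, 22 and 25 DPA were -0.21, -0.40, -0.44 and 0.42. For 384P55_N_04, higher in *im*, the ratios were -2.95, -2.07 and -1.65, a mean of -2.22 ± 0.67 (SD, n = 3) or 4.67-fold. TM-1 was faint on 1 of these arrays, and the ratio was past -1 on each.

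Among the probes higher in TM-1, 384P21_H_13 had ratios of 1.59, 1.75 and 1.01 at 19 DPA, a mean of 1.45 ± 0.39 (SD, n = 3). Its *im* signal was under 400 units on all 3 arrays, so the size of the difference is not known beyond that limit and no fold is given for it. For 384P17_A_24 the ratios were 1.85, 1.08 and 1.24, a mean of 1.39 ± 0.41 (SD, n = 3), with *im* faint on 1 array. In both probes the *im* level was below its own levels at 16 and 22 DPA: for 384P17_A_24 the *im* level was 9.89, 8.53 and 9.79 at 16, 19 and 22 DPA, and the TM-1 level 9.53, 10.03 and 10.27. These levels are log2 intensities of each line after loess and Aquantile scaling.

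Followed line by line, the probes were at different levels after 19 DPA from those before it. Each line's level was set against the mean of both lines at 16 DPA. In the 18 probes higher in TM-1, the median TM-1 level was 1.16 at 19 DPA, 1.20 at 22 DPA and 1.20 at 25 DPA, while that of *im* was -0.07, 1.11 and 0.96. In the 63 probes higher in *im*, the median TM-1 level was -1.59, -1.38 and -1.29, while that of *im* was -0.55, -1.16 and -1.20. The median over all 12092 probes, both lines averaged, was -0.19, -0.10 and -0.07. At 13 DPA the medians of both lines averaged were 0.27 and 0.19 in the members and 0.16 in all probes. In 42 of the 63 probes higher in *im*, TM-1 was faint on replicate 1 of 19 DPA. In 8 of the 18 higher in TM-1, *im* was faint on at least 1 array of 19 DPA. The levels of the lower line at 19 DPA thus rest in part on faint signals.

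**Figure D3:**
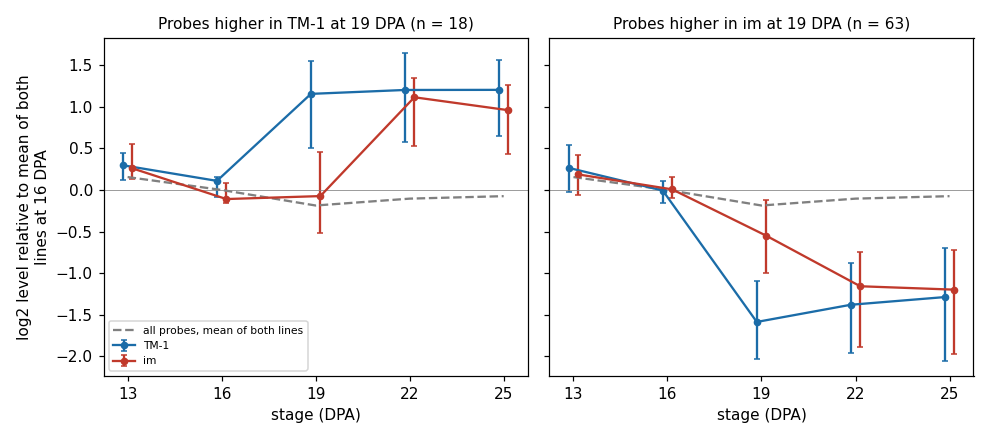
Median log2 level of TM-1 (blue) and *im* (red) at each stage (horizontal axis, DPA), relative to the mean of both lines at 16 DPA (vertical axis), with bars from the lower to the upper quartile over probes. In both panels the lines part at 19 DPA and lie close together at 22 DPA, at 1.20 and 1.11 (left) and at -1.38 and -1.16 (right), while all probes (grey, dashed) stay near 0.

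The move from the level of 16 DPA to that of 22 DPA could be tested, because it uses no difference between lines and no array of 19 DPA enters the difference itself. This contrast was chosen after the data had been seen. By limma on the mean intensity of both lines, 7 of the 18 probes higher in TM-1 (38.9%) rose from 16 to 22 DPA and 0 fell, where 6.98% of all 14163 probes tested rose. Their median change was 1.16, with 17 of 18 positive, against -0.10 over all 12092 probes. Of the 63 probes higher in *im*, 34 (54%) fell and 0 rose, where 8.1% of all probes tested fell. Their median change was -1.26, with 59 of 63 negative. The 34 falls became 22 without replicate 1 of every stage and 18 without replicate 2, and the 7 rises became 3 without Aquantile scaling. The share of all probes that rose or fell was similar, at 7.42% and 8.15%, when only probes measured at every stage were counted. The 2 directions of the line difference at 19 DPA thus had opposite stage changes, a property that the choice of members did not fix.

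The faint TM-1 signals touch these counts. Of the 21 probes higher in *im* with TM-1 at 400 units or more on all arrays of 19 DPA, 15 fell from 16 to 22 DPA (71.4%). Of the 28 with TM-1 faint on 1 array, 11 fell (39.3%), and of the 14 with TM-1 faint on 2 or 3 arrays, 8 fell (57.1%). Of the 15 with an SD of 1 or more, 2 fell (13.3%), and of the 36 with an SD under 0.5, 29 fell (80.6%). All 7 probes higher in TM-1 that rose were among the 10 with *im* at 400 units or more on every array of 19 DPA.

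**Figure D4:**
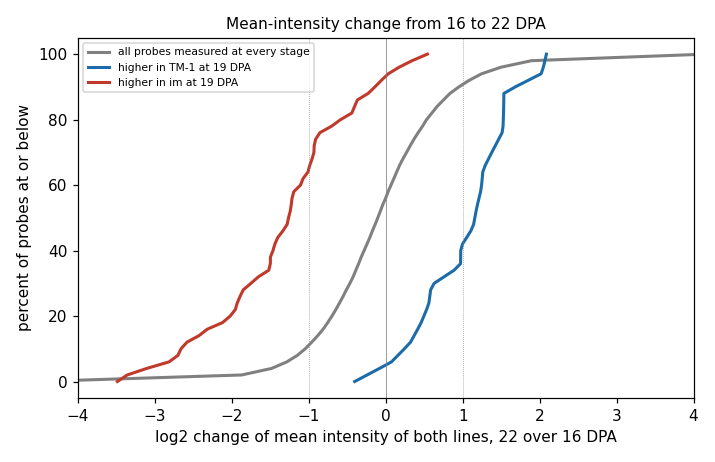
Cumulative share of probes (vertical axis, percent) by the log2 change of the mean intensity of both lines from 16 to 22 DPA (horizontal axis), with 2-fold changes marked by dotted lines. The curve of the probes higher in *im* (median -1.26) lies to the left of all probes measured at every stage (median -0.10), and that of the probes higher in TM-1 (median 1.16) to the right.

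Among the probes higher in TM-1, the largest rise was that of 384P56_B_18. Its ratios at 19 DPA were 1.02, 1.33 and 0.93, a mean of 1.10 ± 0.21 (SD, n = 3). The TM-1 level was 10.18, 12.15 and 12.30 at 16, 19 and 22 DPA, and the *im* level 9.98, 11.06 and 12.04, so *im* was at an intermediate level at 19 DPA. The mean of both lines rose by 2.09 ± 0.29 (SE) on the log2 scale from 16 to 22 DPA, or 4.25-fold (limma adjusted p = 0.000106). For 384P66_D_24 the ratios at 19 DPA were 1.13, 0.87 and 1.19, and the rise from 16 to 22 DPA was 4.08-fold (limma adjusted p = 0.00957, and 0.161 without replicate 1).

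Among the probes higher in *im*, the largest fall was that of 384P13_E_05. Its ratios at 19 DPA were -1.19, -1.28 and -1.06, a mean of -1.18 ± 0.11 (SD, n = 3). The TM-1 level was 12.68, 9.41 and 9.12 at 16, 19 and 22 DPA and the *im* level 12.99, 10.60 and 9.58. TM-1 was already close to its level of 22 DPA at 19 DPA, and *im* was higher. However, TM-1 was faint on 1 array of 19 DPA. At 22 DPA both lines were faint on replicate 1, which was left out. The mean of both lines fell by 3.49 ± 0.32 (SE) on the log2 scale from 16 to 22 DPA, or 11.2-fold (limma adjusted p = 2.92e-06). For 384P16_J_14 the ratios at 19 DPA were -0.84, -0.97 and -1.36, and the mean level fell 10.6-fold (limma adjusted p = 5.18e-06). Its TM-1 signal was faint on 1 array of 19 DPA and on 1 of 22 DPA.

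**Figure D5:**
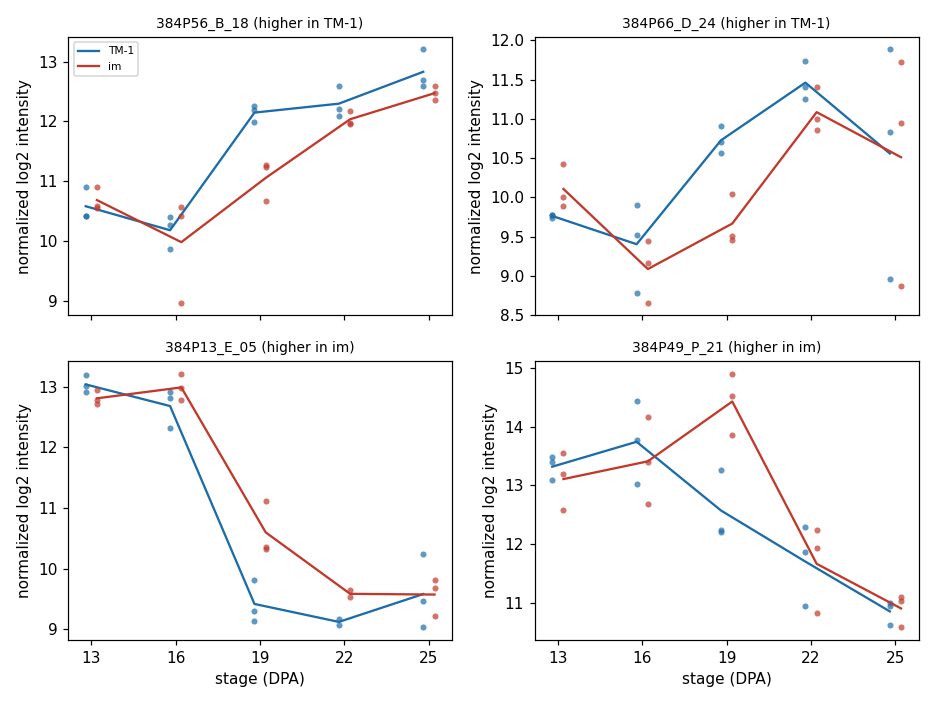
Normalized log2 intensity (vertical axis) of TM-1 (blue) and *im* (red) at each stage (horizontal axis, DPA) for 4 probes. Points are the arrays that measured the probe, at most 3 per stage, and lines join their means. Replicate 1 of 22 DPA is missing for 384P13_E_05. In 384P56_B_18 and 384P66_D_24 TM-1 is above *im* at 19 DPA, in 384P13_E_05 *im* is above TM-1, and in 384P49_P_21 *im* is at 14.43 at 19 DPA against 13.41 at 16 DPA while TM-1 is at 12.57 against 13.74.

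The steps on either side of 19 DPA were tested on the same mean intensity. That measure shares its channel values at 19 DPA with the ratio, so a TM-1 signal that was read low lowers both. From 16 to 19 DPA, 5 of the 18 probes higher in TM-1 rose (27.8%; 4.21% of all 13789 probes tested) and 0 fell, and 26 of the 63 higher in *im* fell (41.3%; 6.44% of all) and 0 rose. Among probes measured at every stage, 3.29% rose and 5.82% fell in this step. The median changes were 0.51 and -1.06, against -0.19 over all 12092 probes. Only 3 of the 26 falls were among the 21 probes with TM-1 at 400 units or more on all 3 arrays of 19 DPA. Another 13 were among the 28 with TM-1 faint on 1 array, and 10 among the 14 with it faint on 2 or 3. The 26 falls are therefore not independent of the faint signals that entered the choice of members. From 19 to 22 DPA, 11 of the 63 higher in *im* fell (17.5%; 4.15% of all 13118 probes tested), with a median change of -0.21 against 0.09. Among probes measured at every stage, 5.35% rose and 3.75% fell. None of the 18 higher in TM-1 passed in that step by limma, where 5.31% of all probes tested rose, although 6 had an unadjusted p under 0.05 and their median change was 0.62. These counts rest on single arrays and on the processing. The 26 falls from 16 to 19 DPA became 9 when either faint dye removed a spot and 41 without Aquantile scaling. Without replicate 1, replicate 2 or replicate 1 of 19 DPA alone, the 26 falls from 16 to 19 DPA became 5, 12 and 13, the 5 rises 0, 1 and 3, and the 11 falls from 19 to 22 DPA 3, 0 and 6. Without replicate 2 of 19 DPA alone, the 5 rises became 2 and the 11 falls 4, and without Aquantile scaling they became 0 and 1. Without replicate 3 of every stage the 5 rises became 3.

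The largest falls from 16 to 19 DPA were those of 384P32_B_08, 7.22-fold (limma adjusted p = 9.71e-05), and of 384P13_E_05, 7.12-fold (limma adjusted p = 6.27e-05). In 384P32_B_08 the ratios at 19 DPA were -0.98, -1.72 and -0.82, and TM-1 was faint on 2 of the arrays. In 384P13_E_05 TM-1 was faint on 1 of them. The largest rises were those of 384P37_F_23, 3.26-fold (limma adjusted p = 0.0314), and of 384P22_M_22, 2.93-fold (limma adjusted p = 0.0175). The ratios at 19 DPA were 0.65, 1.02 and 1.70 in 384P37_F_23 and 0.82, 1.17 and 1.33 in 384P22_M_22, positive on every array with the lowest on replicate 1. Neither rise passed without replicate 1 of every stage (limma adjusted p = 0.0516 and 0.180) or without replicate 2 (0.281 and 0.0840). From 19 to 22 DPA the largest falls were those of 384P49_P_21, 3.53-fold (limma adjusted p = 0.00925), and of 384P58_J_02, 2.90-fold (limma adjusted p = 0.0286). The latter had ratios of -2.07, -0.77 and -0.94 at 19 DPA, with TM-1 faint on replicate 1. Neither fall passed without replicate 1 of every stage (limma adjusted p = 0.120 and 0.181) or without replicate 2 (0.120 and 0.398).

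The line whose level departed at 19 DPA differed from probe to probe. In the probes higher in *im*, the median change from 16 to 19 DPA was -1.52 for TM-1 and -0.57 for the mutant, and from 19 to 22 DPA the TM-1 median was 0.26 and the *im* median -0.72. In 39 of the 63 the TM-1 level at 19 DPA was below that of both 16 and 22 DPA, while the *im* level was above both in 13 and below both in 15. TM-1 was faint on replicate 1 of 19 DPA in 42 of the 63, and these counts were not split by it. In the probes higher in TM-1, the median change from 16 to 19 DPA was 0.98 for TM-1 and -0.10 for the mutant, and from 19 to 22 DPA these medians were 0.25 and 1.05. In 9 of the 18 the *im* level at 19 DPA was below that of both neighbouring stages, and in 5 the TM-1 level was above both. From 16 to 22 DPA both lines changed in the same direction in 16 of 18 and 58 of 63 probes. The rule kept the line ratio under 0.5 in size at both stages, which largely sets this in advance. Nothing is read from these 2 counts.

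Single probes show the extremes of this spread. In 384P49_P_21 the ratios at 19 DPA were -1.66, -2.33 and -1.57, and the *im* level was 13.41, 14.43 and 11.66 at 16, 19 and 22 DPA while the TM-1 level was 13.74, 12.57 and 11.70. In 384P54_O_13 the ratios were -1.93, -1.71 and -1.87, and the *im* level was 12.99, 14.08 and 11.68 while the TM-1 level was 13.39, 12.24 and 11.78. In both, *im* was at its highest level of the 5 stages at 19 DPA, and no channel was faint. With all 3 arrays of 19 DPA, the departure was on the side of TM-1 in 384P64_O_09, whose ratios were -2.20 and -2.22 on replicates 2 and 3. On these 2 arrays TM-1 was at 9.64 and 9.88, below its levels of 12.09 and 10.52 at 16 and 22 DPA. The *im* level there was 11.85 and 12.11, above its levels of 11.80 and 10.37, so both lines departed. Its deposited ratio was blank on replicate 1, where the intensities gave a TM-1 level of 6.88 and an *im* level of 10.10, and TM-1 was faint on 1 of the 3 arrays.

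The departure was also on the side of TM-1 in 384P33_I_11, with ratios of -2.60 and -1.96 on replicates 2 and 3. Its TM-1 signal was under 400 units on all 3 arrays of 19 DPA, so no fold is given for it. The TM-1 level was 10.83, 7.61 and 9.25 at 16, 19 and 22 DPA and the *im* level 10.53, 9.23 and 9.07. These levels include replicate 1 of 19 DPA, whose deposited ratio was blank and where TM-1 was at 8.06 and *im* at 7.97, so the line difference was present on replicates 2 and 3 alone. Among the probes higher in TM-1, the departure was most on the side of TM-1 in 384P62_F_07 and 384P37_F_23. In 384P62_F_07 the ratios at 19 DPA were 0.76, 1.03 and 1.25, the TM-1 level was 9.50, 11.27 and 10.18 at 16, 19 and 22 DPA, and the *im* level was 9.89, 10.26 and 10.39.

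Set against each line's own levels of 16 and 22 DPA, TM-1 at 19 DPA was nearer its level of 22 DPA in 56 of the 63 probes higher in *im* and in 13 of the 18 higher in TM-1, and *im* in 26 and 6. TM-1 was nearer 22 DPA while *im* was nearer 16 DPA in 32 of the 63 (50.8%) and in 8 of the 18 (44.4%), and the reverse held in 2 and 1. Among the 34 that fell from 16 to 22 DPA it was 24 (70.6%) and the reverse 0. Of the other probes, 23.3% of those that fell and 21.5% of those that rose were placed so, with the reverse in 3.78% and 5.96%. Of those that did neither, 15.8% were placed so and 20.1% the reverse. Other probes with a stage change thus leaned the same way. The sign of the ratio at 19 DPA enters the members' counts, so these describe the members and are no test. The counts for the 63 also rest on TM-1 levels at 19 DPA, where TM-1 was faint on replicate 1 in 42. Among the other 952 probes that fell from 16 to 22 DPA, the ratio at 19 DPA was negative in 90.5% with a median of -0.51. Among the other 890 that rose, it was positive in 78.4% with a median of 0.42. Among the 10169 probes that did neither, it was positive in 48.5% with a median of -0.02. Most other probes with a stage change thus had a ratio of the same sign as the members that changed in that direction. Such a change was called in 34 of the 63 members and 7 of the 18. The larger size of the members' ratios was set by the rule's limit of 1.

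The ratio at 19 DPA was also read on arrays that had no part in choosing probes. The arrays of a stage may not all come from separate plants, so an array left out may repeat material of one kept. The rule was applied without one replicate number at all stages, and the ratio was then read on the array of 19 DPA left out. Without replicate 1, 31 probes were higher in *im* and 25 of the 25 measured on the array left out were negative there, with a median of -1.65. Of the 23 higher in TM-1, 16 of 17 were positive, with a median of 0.95. On replicate 1, 60.7% of all probes measured at every stage were negative.

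Without replicate 2, 61 of 70 probes higher in *im* were negative on the array left out, with a median of -0.65, and 17 of 17 higher in TM-1 were positive, with a median of 0.87. Without replicate 3, 56 of 60 and 13 of 15 had the sign of the other arrays, with medians of -0.69 and 1.01. On replicates 2 and 3, 51.3% and 48.7% of all probes were negative. In the sets higher in *im* chosen without replicate 2 or replicate 3, the median size on the array left out was thus below the limit of 1. These sets were chosen anew and only partly overlap the members. Without replicates 1, 2 and 3, 19 of 31, 32 of 74 and 25 of 60 probes higher in *im* were members. For those higher in TM-1 it was 10 of 23, 7 of 17 and 6 of 15. The medians therefore describe these sets and not the members.

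The members were spread over the array. They came from 46 of the 76 source plates, with at most 6.17% of them from any plate. The 63 higher in *im* lay in 37 of the 48 print blocks with at most 4 in a block, and the 18 higher in TM-1 in 15 blocks with at most 2.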

How the data were processed

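The authors scanned the arrays with LuxScan and deposited, per array, spot and background intensity values in both dyes. They also deposited a table of log2 ratios, which correlated with log2(Cy5/Cy3) of the same arrays at 0.959 to 0.996 with column medians of -0.014 to 0.018. Its values are thus Cy5 over Cy3, centred near 0 and not turned for the swap, and the sources used here do not give which of the authors' normalization steps it went through. R 2.12.2 and limma 3.4.5 are named in the processing notes of the submitters. Control spots (816) were left out.

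Members were chosen on the deposited log2 ratios, turned to TM-1 over *im*, with spots under 400 background-subtracted units in both dyes missing. At least 2 arrays of every stage had to pass this limit. Between 13761 and 19272 probes were measured per array. Levels and mean intensities were computed from the background-subtracted medians, raised to at least 50 units, after loess and Aquantile in limma 3.58.1 under R 4.3.3. Stage changes were fitted by limma with a coefficient for each of the 5 stages over the 15 arrays and Benjamini-Hochberg adjustment over all probes tested. Probes rose or fell at an adjusted p under 0.05 and a change of at least 2-fold. The script was tested on simulated data. The number of arrays limits the precision.

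Named probes were, per direction, the 2 with the largest ratio of one sign on all 3 arrays, the 2 with the largest called changes per interval and direction, and the 2 whose departure lay most in either line. The members, lists and tests were chosen with earlier results of these data known. Alternatives were other ratios, backgrounds, filters, limits, scalings, dye assignments and blocks, and leaving out arrays.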

Additional observations from a re-analysis of the deposited data

How the results depend on the processing

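The rule took 18 probes in which TM-1 was higher and 63 in which *im* was higher. These counts were 16 and 42 with ratios from the intensities, 19 and 39 with normexp, 12 and 30 when a spot needed both dyes above the limit, 138 and 186 with no limit, 0 and 20 with a limit of 1.5 at 19 DPA, 1 and 12 with a limit of 0.3 at the other stages, and 0 and 32 with no dye swap. Leaving out a replicate number at every stage gave 15 to 23 and 31 to 74, and leaving out an array of 19 DPA 14 to 28 and 37 to 88. The probes themselves changed more than these totals. Of the 18 and the 63, 10 and 19 remained without replicate 1, 7 and 32 without replicate 2, and 6 and 25 without replicate 3. With ratios from the intensities 14 and 40 remained, with normexp 9 and 27, and with no dye swap 0 and 7. Under the dye assignment of the methods, added after the data had been seen, the counts were 63 and 18. For the mean intensity, counts are given for the steps 16 to 19, 19 to 22 and 16 to 22 DPA in turn. All probes called were 1468, 1241 and 2136, against 2467, 581 and 1915 with no Aquantile scaling, 959, 921 and 1615 when either faint dye removed a spot, and 3749, 5459 and 2884 with no limit. With no Aquantile scaling, 10.2%, 75% and 28.3% of the calls were rises, in place of 39.5%, 56.2% and 46.3%, and the median change of all probes from 16 to 22 DPA was -0.32. Without the limit, 53.8% of the calls in the first step were rises. Leaving out arrays gave 160 to 2321, 145 to 1900 and 909 to 2281 calls. The members higher in *im* that fell were 26, 11 and 34, against 41, 1 and 35 with no Aquantile scaling, 9, 9 and 32 when either faint dye removed a spot, 23, 7 and 31 without negatively flagged spots, and 17, 11 and 30 when members came from the intensities. Leaving out arrays gave 5 to 27, 0 to 11 and 18 to 38. The members higher in TM-1 that rose were 5, 0 and 7, against 0, 0 and 3 with no Aquantile scaling, 3, 0 and 7 with normexp, 3, 2 and 9 when either faint dye removed a spot, 4, 2 and 7 with no limit, and 5, 2 and 8 without negatively flagged spots. When members came from the intensities they were 6, 1 and 8. Leaving out arrays gave 0 to 4, 0 to 1 and 5 to 8. The causes were not tested. With the replicate number as a block, the members that fell were 27, 10 and 36 and those that rose 4, 0 and 8, and all probes called were 1332, 1111 and 2024. Arrays with the same number correlated at -0.05 to 0.126 in their deviations, over 0.1 in 2 of 9 pairs, so the number was not taken to pair them. Over the named probes, 125 values kept their direction and their side of the threshold and 22 kept the direction alone. None of the values recomputed changed sign.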
